A study of Mus musculus and Homo sapiens with 10 samples.

Results

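In K562 cells, a human erythroleukaemia line, 5000 regions on the 22 numbered chromosomes were called with exactly the same start and end for 2 acetylations of histone H3, H3K122ac and H3K27ac. The regions are islands, runs of neighbouring 200 bp windows enriched over background, and they were chosen by the called coordinates alone, identical chromosome, start and end in the H3K122ac and H3K27ac lists. Since the calls rest on the read counts, the levels of both marks had a part in the choice, and they are given as a description. They made up 7.09% of the 70526 H3K122ac islands and 2.94% of the 170061 H3K27ac islands on these chromosomes. Another 183 identical islands lay on X and are not counted among the 5000. Because both counts in such an island refer to the same bases, the marks can be compared there without a difference in length or placement.

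The study mapped histone marks by native chromatin immunoprecipitation in mouse embryonic stem cells and in K562, and asks whether acetylation inside the histone core marks regulatory regions. K562 cells were untreated, at passage 14, and carry the BCR-ABL1 fusion of chronic myeloid leukaemia. Their chromatin was cut with micrococcal nuclease and precipitated with an antibody to H3K122ac, to H3K27ac or to H3K4me1, giving 1 library per mark, and an input library was made as well. The H3K122ac list held 18283729 reads inside islands, the H3K27ac list 34195325 and the H3K4me1 list 35562145. No mark had a replicate library in K562. Differences between islands can therefore be set against counting error but not against the spread between cultures, and no p-value is given. K562 is a single aneuploid line, so the values describe that line.

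The lysine acetylated in H3K122ac sits in the globular core of histone H3, at the surface where DNA wraps most tightly around the nucleosome, and its acetylation is known to loosen that contact. The lysine of H3K27ac lies in the flexible tail, and its acetylation is a standard mark of active promoters and enhancers. H3K4me1 is typical of enhancers and of the flanks of promoters, and it is usually low directly at active transcription starts, where other methylation states of the same lysine prevail.

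The identical islands were compact. Their length ran from 200 to 14400 bp with a median of 1200 bp, against medians of 1800 bp for the whole H3K122ac list and 1200 bp for the whole H3K27ac list. Together they covered 8.27 Mb. They held 974357 H3K122ac reads, 5.33% of the reads in that list, and 1088225 H3K27ac reads, 3.18% of the reads in the other. An island held a median of 102 H3K122ac reads (lowest 22, highest 2595) and 126 H3K27ac reads (lowest 25, highest 3849). The background count was the same in both lists at all 5000 islands, with a median of 71 reads (lowest 2, highest 1197). It therefore cancels from a ratio of folds over background, but the background reads within each ChIP count do not cancel.

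Each count was divided by the total reads of its own list, and the log2 of the H3K122ac share over the H3K27ac share was taken per island. The median log2 ratio was 0.66 (95% interval over islands 0.64 to 0.68), a 1.58-fold larger share for H3K122ac, and 4239 islands (84.8%) were above 0. This overall level is a matter of scaling. It was 1.17 for the ratio of the folds over background that the authors deposited, which rests on whole-library sizes. It was -0.08 when each mark was scaled by its reads in the identical islands, which brings the ratio near 0 by construction. The size of the overall level therefore depends on the scaling chosen. A value below 0 came only with the scaling that is near 0 by construction, so no direction is drawn from it. Differences between islands are the same under these scalings.

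At a 2-fold limit, 1490 islands (29.8%) had the larger share in H3K122ac and 24 (0.48%) in H3K27ac. Among the 34641 other island pairs that overlapped one to one but had different ends, compared per kb, the shares were 22.1% and 1.7%, and over all 39641 one-to-one pairs 23.1% and 1.54%. Their median log2 ratio was 0.48 (0.47 to 0.49). Centred on the median of the 5000 islands, 176 (3.52%) lay 2-fold or more above it and 318 (6.36%) 2-fold or more below, against 5.56% and 8.41% of the other pairs and 5.41% and 8.34% of all pairs around their own medians. Just outside the rule, the 6009 pairs whose ends differed by 200 bp in all had a median of 0.64, and those differing by 2000 bp or more had 0.25. The value thus changed little across the boundary of exact identity and was lower only for pairs with larger offsets.

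The islands differed from each other by more than counting allows. The standard deviation of the log2 ratio over islands was 0.61, while counting error alone gave 0.21, or 11.7% of the variance. In the 1206 islands with 200 or more reads of each mark, the standard deviation was 0.44 and that from counting 0.10. An exact binomial 95% interval of the ratio was computed for every island. It lay wholly above the median of all 5000 at 1475 islands, wholly below it at 1290, and included it at 2235. These intervals cover counting error only, since sequenced reads are not all independent molecules.

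**Figure D1:**
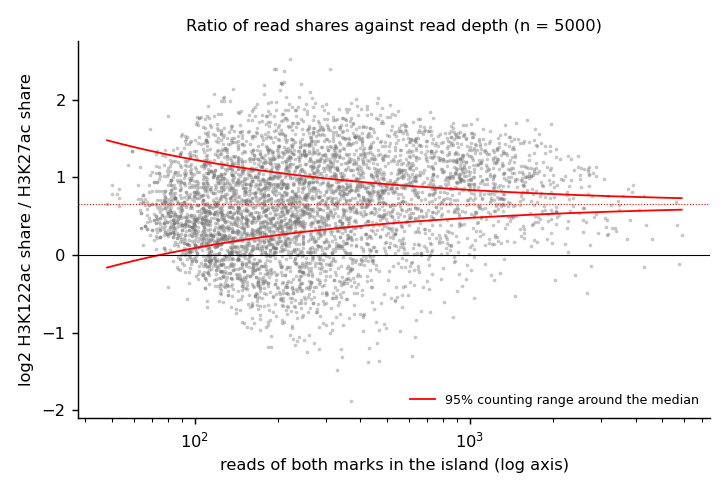
The log2 ratio of H3K122ac to H3K27ac read share (vertical axis) is plotted against the reads of both marks in the island (horizontal log axis), 1 point per identical island. The red curves bound the 95% counting range around the median of 0.66 (dotted), and 1475 islands have their own interval wholly above that median and 1290 wholly below.

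The read density of H3K122ac varied over a wider range than that of H3K27ac in the same islands. Density was computed as reads per kb of island per 1000000 reads of the list, with background reads left in. Background weighed more in H3K27ac, with a median fold over background of 2.76 against 6.24 for H3K122ac. Its part in the narrower H3K27ac range was not tested. Between the 5th and 95th percentiles the islands ran from 2.10 to 13.2 for H3K122ac (median 4.97) and from 1.89 to 6.31 for H3K27ac (median 3.14). The densities of the marks rose together across islands, with a Spearman coefficient of 0.63 over 5000 islands that share the background library and the calling rule. Between the 500 islands with the lowest and the 500 with the highest ratio, median H3K122ac density went from 2.36 to 9.84, while median H3K27ac density went from 3.29 to 3.07. What separated islands of low and high ratio was therefore mostly the density of H3K122ac reads. These sets were cut on the ratio itself, so this is a description of them.

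**Figure D2:**
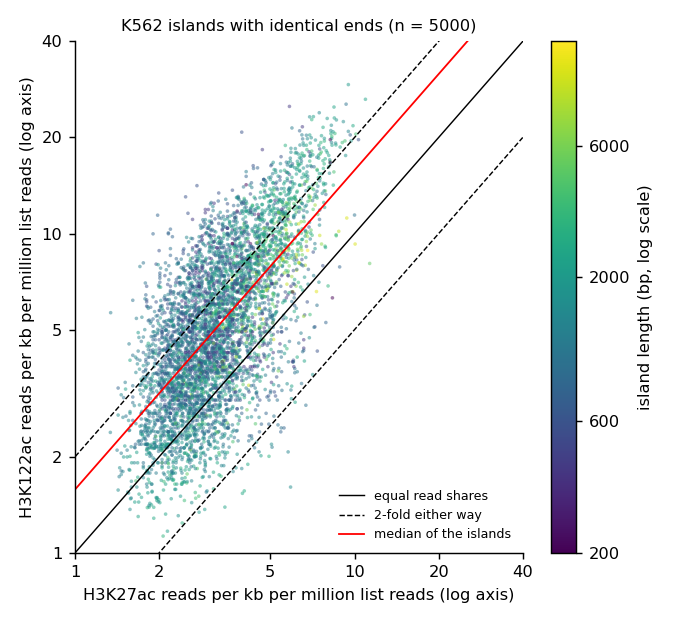
Each point is 1 of the 5000 identical islands, with H3K27ac density on the horizontal axis and H3K122ac density on the vertical axis, both in reads per kb per 1000000 list reads on log axes and coloured by island length. The red line marks the median ratio and the dashed lines a 2-fold difference either way, beyond which lie 1490 islands on the H3K122ac side and 24 on the H3K27ac side.

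The calling rule sets a floor under both counts. Among the 585 identical islands of 600 bp, the lowest H3K122ac count was 28 and the lowest H3K27ac count 37, with medians of 50 and 61. Among the 198 islands of 2000 bp, the lowest counts were 49 and 102. Regions with little of either mark are not in the lists, which limits the ratio on both sides. Single islands ran from -0.78 to 2.40 at 600 bp, from -1.24 to 2.21 at 1200 bp and from -1.09 to 1.77 at 2000 bp.

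The islands of highest ratio, among the 2335 with at least 100 reads of each mark and 10 background reads, had 120 to 168 H3K27ac reads and 249 to 343 H3K122ac reads. At chr9:127185601-127187000 (hg19), H3K122ac had 317 reads and H3K27ac 146, a log2 ratio of 2.02 (interval 1.73 to 2.31). The H3K122ac fold over background there was 10.7 and the H3K27ac fold 1.85, both as deposited by the authors. At chr7:114025001-114026800, H3K122ac had 263 reads, the densities were 7.99 and 1.98 and the log2 ratio was 2.01 (1.70 to 2.33). At chr18:67136201-67137600, the read counts were 311 and 149, with a log2 ratio of 1.96 (1.68 to 2.26). Neither of the latter islands met an H3K4me1 island, whereas 98.2% of the 2335 islands did. The counts at chr5:172159801-172161200 were 249 and 120, with a log2 ratio of 1.96 (1.64 to 2.28). The island at chr1:161409401-161410600, with 343 and 168 reads and a log2 ratio of 1.93 (1.66 to 2.21), had the highest H3K122ac fold of these 6, at 39.1 over 34 background reads. The 6th, chr19:13345201-13346400, had 259 and 128 reads, a log2 ratio of 1.92 (1.61 to 2.24) and identical ends in the H3K4me1 list too. The 6 islands were 1200 to 1800 bp long, and their intervals overlapped, so their order is not resolved by the counts.

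The islands of lowest ratio had 366 to 507 H3K27ac reads and at most 130 H3K122ac reads. At chr3:9826801-9829800, H3K122ac had 110 reads and H3K27ac 507, a log2 ratio of -1.30 (-1.61 to -1.0). At chr1:91969601-91972000, the counts were 130 and 503 and the log2 ratio -1.05 (-1.34 to -0.77). At chr11:47544801-47546600, they were 119 and 436, and the log2 ratio was -0.97 (-1.27 to -0.67). The 3 islands had H3K27ac folds of 2.73, 4.11 and 4.17, against a median of 2.76, and H3K122ac folds of 1.58, 2.83 and 3.03, against a median of 6.24. At chr22:41703201-41705000, with 100 and 366 reads and a log2 ratio of -0.97 (-1.30 to -0.65), the H3K27ac fold was 7.19 and the H3K4me1 fold 6.72, each the highest among these 6. The counts at chr6:144288801-144292200 were 108 and 387, with a log2 ratio of -0.94 (-1.26 to -0.63). Each of these 5 islands lay inside a longer H3K4me1 island. The 6th, chr4:10233001-10237000, with 110 and 379 reads and a log2 ratio of -0.88 (-1.20 to -0.57), had identical ends in all 3 lists and low folds, 1.52, 1.97 and 1.49 for H3K122ac, H3K27ac and H3K4me1.

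The 6 islands with the largest product of the 2 densities had log2 ratios from 1.02 to 1.62. H3K122ac density varies more and is the numerator of the ratio, so this choice itself favours high ratios, and the values are a description. At chr2:43821801-43824200, H3K122ac had 1156 reads and H3K27ac 898, with a log2 ratio of 1.27 (1.14 to 1.39). The highest H3K122ac density of all identical islands, 29.3 reads per kb per 1000000 list reads, was at chr21:34696401-34698400, where the counts were 1071 and 650 and the log2 ratio 1.62 (1.48 to 1.77). At chr15:85290401-85291400, they were 465 and 319, with a log2 ratio of 1.45 (1.24 to 1.66). The island chr19:10945601-10948000 had 1093 and 693 reads and a log2 ratio of 1.56 (1.42 to 1.70). Values at chr1:39490601-39493200 were 1035 and 878 reads, with a log2 ratio of 1.14 (1.01 to 1.27), and 2 separate H3K4me1 islands together covered 61.5% of it. The longest of these 6, chr1:119681601-119685600 with 4000 bp, had 1499 and 1383 reads and a log2 ratio of 1.02 (0.91 to 1.13). None of these islands was over 4000 bp long, and 4 of the 6 lay inside a longer H3K4me1 island.

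The 6 longest islands lay on both sides of the median, 3 of them wholly below it. At chr11:61596601-61611000, of 14400 bp, H3K122ac had 2332 reads and H3K27ac 3346, a log2 ratio of 0.38 (0.31 to 0.46). At chr10:63577001-63591400, also of 14400 bp, the counts were 1422 and 2310 and the log2 ratio 0.20 (0.11 to 0.30). The value at chr17:45362001-45374800, of 12800 bp, was 0.35 (0.25 to 0.45), from 1363 and 2001 reads. These are the 3 whose intervals lay wholly below 0.66. At chr1:150970201-150984200, of 14000 bp, the counts were 2595 and 3008, and the log2 ratio of 0.69 (0.61 to 0.77) was also among the 4 nearest to the median for islands with 1000 or more reads of each mark. The remaining long islands, chr10:112622001-112634800 with 1876 and 1994 reads and chr16:50292001-50304000 with 1829 and 2279 reads, had log2 ratios of 0.82 (0.72 to 0.91) and 0.59 (0.50 to 0.68).

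The other islands nearest to the median show what a typical ratio looks like at high depth. At chr2:119556801-119566800, a 10000 bp island with identical ends in all 3 lists, H3K122ac had 1589 reads and H3K27ac 1896, for a log2 ratio of 0.65 (0.55 to 0.75). The counts were 1486 and 1778 at chr12:6444001-6453200, with a log2 ratio of 0.64 (0.54 to 0.74), and 1080 and 1298 at chr3:193623601-193632000, also 0.64 (0.52 to 0.76). At a median ratio the H3K27ac count is thus slightly higher in absolute reads, because its list is the deeper.

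Over all identical islands, the length classes differed little in ratio. The median log2 ratio was 0.68 (0.65 to 0.73) in the 926 islands of 200 to 600 bp, 0.65 (0.60 to 0.70) in 1236 of 800 to 1000 bp and 0.62 (0.56 to 0.66) in 1223 of 1200 to 1600 bp. It was 0.72 (0.66 to 0.79) in 1091 of 1800 to 3000 bp and 0.61 (0.57 to 0.66) in 524 longer ones. This depended on the reads counted: the longest of 4 length classes minus the shortest gave -0.02, but -0.37 among islands with 100 or more reads of each mark and -0.20 with background subtracted. A minimum of 100 reads is a larger share of the smaller H3K122ac list, so it keeps islands partly by their ratio. At 200 to 600 bp the median counts were 46 and 54, so most short islands fell below it. The 4 classes were cut anew among the islands kept, and the part of this choice in the -0.37 was not tested. The order also differed with H3K27ac density. The islands were divided into 5 classes of 1000 by H3K27ac density. From the lowest class to the highest, the median ratio went from 0.94 to 0.44 in islands of 200 to 600 bp, but from 0.42 to 1.09 in islands of 1800 to 3000 bp and from 0.10 to 0.72 in longer ones. H3K27ac reads stand in the denominator of the ratio and in these classes, so their counting error lowers the ratio toward the higher classes. That effect is larger in short islands with few reads, and the floor under the H3K122ac counts also bears on them. The part of either in these trends was not tested. In these long islands the median H3K27ac fold over background also rose from class to class, so background reads weighed less in the higher classes. The part of background in their trend was not tested.

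H3K4me1 was not used to choose the islands. An H3K4me1 island was met, by at least 1 bp, at 4563 of the 5000 islands, or 91.3% (Wilson 95% interval 90.4 to 92.0%), against 94.9% (94.7 to 95.1%) of the other 50108 H3K122ac islands that met H3K27ac and 54.7% (53.9 to 55.5%) of the 15418 that did not. Among islands of 200 to 600 bp the share was 79.3% (76.5 to 81.8%) for identical islands and 87.8% (86.5 to 89.0%) for the other H3K122ac islands with H3K27ac. In islands of 1200 to 1600 bp 1150 of 1223 (92.6 to 95.2%) met one, against 91.8% (91.2 to 92.4%), and in islands of 1800 to 3000 bp the shares were 97.5% (96.4 to 98.3%) and 95.4% (95 to 95.7%). At 800 to 1000 bp the shares were 88.3% (86.4 to 90.0%) and 88.8% (87.9 to 89.6%), with overlapping intervals. Above 3000 bp they were 99.8% (98.9 to 99.97%) and 98.9% (98.7 to 99.04%), also overlapping. Identical islands thus met H3K4me1 less often than the others at 200 to 600 bp and more often at 1200 to 3000 bp. These differences were larger than the counting intervals, though neighbouring islands are not independent. The 437 identical islands without H3K4me1 were shorter, with a median of 800 bp, and had a median ratio of 0.73 (0.66 to 0.83) against 0.65 (0.63 to 0.67) with it. At 200 to 600 bp the medians were 0.86 (0.76 to 1.01) without and 0.65 (0.58 to 0.68) with H3K4me1. At 1200 to 1600 bp they were 0.81 (0.30 to 1.07) in 73 islands without and 0.62 (0.56 to 0.66) with it. The order was the other way at 800 to 1000 bp, with 0.52 (0.43 to 0.74) in 144 islands without and 0.66 (0.62 to 0.72) with it. So it was at 1800 to 3000 bp, with 0.15 (0.04 to 0.71) in 27 islands and 0.74 (0.67 to 0.80) in 1064. Only at 200 to 600 bp were the intervals apart, so a change of direction with length is not resolved.

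How the H3K4me1 island lay around the acetylated one went with the ratio. The 2711 islands inside a longer H3K4me1 island had the lowest median log2 ratio, 0.56 (0.53 to 0.59), and 25.3% of them passed 2-fold on the H3K122ac side. The 847 islands with identical ends in all 3 lists had 0.70 (0.65 to 0.77). The 196 islands that met several separate H3K4me1 islands, so that H3K4me1 was interrupted within the acetylated region, had 1.06 (1.00 to 1.12), and 57.7% of them passed 2-fold. Their H3K122ac density was 10.0, against 4.79 inside a longer H3K4me1 island, and their H3K27ac density 4.92 against 3.28. These islands had a median length of 3200 bp, compared with 1200 bp for those inside, and fewer background reads, 45.3 per kb against 60. The part of background in the difference was not tested beyond its subtraction, which left 0.29 of the 0.51 log2 units. At 1800 to 3000 bp alone, the 89 interrupted islands had a median of 1.23 (1.14 to 1.27) and the 567 inside a longer H3K4me1 island 0.59 (0.50 to 0.67). H3K27ac density still differed between them, at 4.76 and 3.43. The ratio rose with H3K27ac density at this length, and the part of that in the contrast was not tested. Above 3000 bp the medians were 0.88 (0.80 to 0.98) in 103 islands and 0.45 (0.39 to 0.54) in 244. The other one-to-one pairs, which come from the same libraries and share the list totals, had medians of 0.97 (0.94 to 0.99) in 2814 interrupted islands and 0.38 (0.37 to 0.39) in 18411 inside a longer H3K4me1 island.

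**Figure D3:**
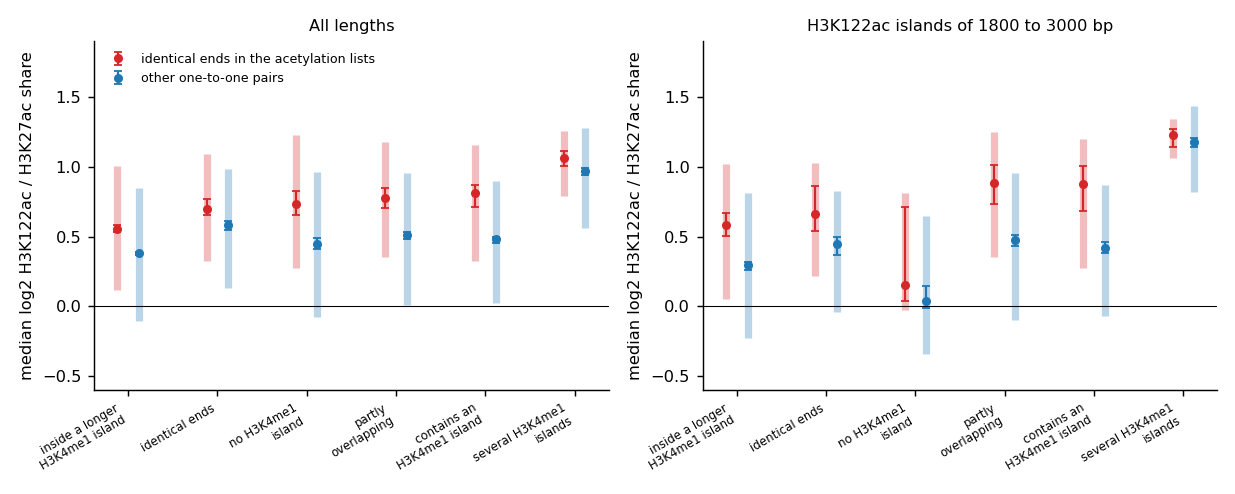
Points are the median log2 ratio of H3K122ac to H3K27ac share by the way the island lies to H3K4me1, for identical islands (red) and other one-to-one pairs (blue), at all lengths and at 1800 to 3000 bp. Thin bars are 95% intervals of the median over islands and thick pale bars run from the 25th to the 75th percentile of the islands; islands meeting several H3K4me1 islands stand highest, at 1.06 and 0.97 over all lengths.

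Among the islands with the strongest H3K27ac, those with little H3K4me1 had higher ratios than those with much. H3K4me1 density was taken over the H3K4me1 islands met, on the same scale, and the islands with H3K4me1 were divided by it into 5 classes of about equal number. In the top class of H3K27ac density, the median log2 ratio went from 1.15 (1.03 to 1.24) in the 92 islands of the lowest H3K4me1 class through 1.06 and 0.90 to 0.65 and 0.66 (0.61 to 0.75) in the 384 islands of the highest. Median H3K27ac density hardly differed between those ends, at 5.30 and 5.56, while H3K122ac density was 11.5, 11.8, 10.4, 8.77 and 8.86 from the lowest H3K4me1 class to the highest. Background reads per kb were 47.9 and 63.4, and background subtraction left a difference of 0.42 of 0.49. Islands meeting several H3K4me1 islands made up 22.8% of the first and 3.65% of the second, and their part in the difference was not tested. In the lowest class of H3K27ac density the same ends had 0.62 (0.52 to 0.69) and 0.51 (0.36 to 0.81), with overlapping intervals. The relation was therefore visible at strong H3K27ac and not resolved at weak H3K27ac. In the 847 islands with identical ends in all 3 lists, every count covers the same bases. Whatever their H3K27ac, the median ratio there was 0.60 (0.46 to 0.68) in the lowest of 5 H3K4me1 classes. It was 0.72 (0.61 to 0.86) in the highest, with overlapping intervals. H3K27ac density went from 2.39 to 4.53 between these classes, so they cannot show whether the relation holds at a fixed H3K27ac level.

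**Figure D4:**
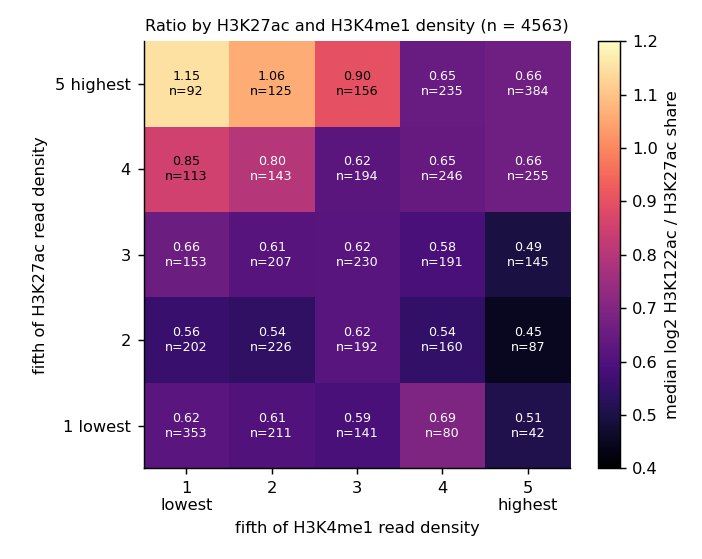
Colour and upper number give the median log2 ratio of H3K122ac to H3K27ac share for identical islands that met H3K4me1, in 5 classes of H3K27ac density (vertical) and 5 of H3K4me1 density (horizontal), with the number of islands below it. The top row falls from 1.15 at low H3K4me1 to 0.66 at high H3K4me1, while the bottom row stays between 0.51 and 0.69.

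Isolated islands had the higher ratios. In the 1250 islands nearest to another H3K27ac island, at 400 to 800 bp, the median log2 ratio was 0.44 (0.39 to 0.49), and 17.7% passed 2-fold on the H3K122ac side. In the farthest 1250, at 5800 bp or more, it was 0.93 (0.90 to 0.98) and 45.8% passed. H3K27ac density went from 3.76 to 2.75 between these sets and H3K122ac density from 4.81 to 5.23, while median length went from 1600 to 1000 bp. The difference therefore came mainly with lower H3K27ac in isolated islands. The calling rule had a part in the nearest set, since H3K122ac islands were joined across gaps of 600 bp and H3K27ac islands across 200 bp. An H3K27ac neighbour within 600 bp can stand beside identical ends only where no H3K122ac was called within that distance. How much of the difference comes from this choice was not tested. By distance to another H3K122ac island the medians were 0.57 and 0.85 in the nearest and farthest 1250.

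Neighbouring identical islands shared little of their ratio. For 373 successive pairs under 10000 bp apart the Pearson coefficient was 0.14 and the median absolute difference 0.47 log2 units, close to the 0.55 of all 4978 successive pairs. Runs of at least 5 identical islands with steps of up to 100 kb were found 94 times. The highest median ratios were 1.5 in chr19:18058001-18216000, 1.40 in chr17:13288601-13523200 and 1.39 in chr8:144702601-144975000. Only the last had all 5 islands above the median of 0.66, since the first had 4 of 5 and the second 3 of 5, with single islands from -0.70 to 2.02. The lowest medians, -0.05 in each, belonged to chr11:34659801-34754000, chr12:116559201-116779200 and chr6:147106001-147393800. None of the 6 islands of the chromosome 12 run lay above 0.66, and their H3K122ac and H3K27ac counts summed to 1555 and 2843 reads. By the log2 ratio of summed reads, the 3 highest runs had 1.38, 0.44 and 1.43, and the 3 lowest 0.04, 0.03 and 0.49. On that measure the chromosome 17 run was below the chromosome 6 run.

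Chromosome 19 stood apart from the other chromosomes. Its 193 identical islands had a median log2 ratio of 0.99 (0.90 to 1.09), and 48.7% passed 2-fold on the H3K122ac side. The 4807 islands of the other chromosomes had 0.65 (0.62 to 0.67) and 29.0%. H3K122ac density was 6.54 against 4.92, H3K27ac density 3.17 against 3.14, and background 54.0 against 57.6 reads per kb. Chromosome 14 came next, with 0.76 (0.66 to 0.90), and the lowest were chromosome 5, with 0.54 (0.48 to 0.66), and chromosome 1, with 0.54 (0.48 to 0.62). From chromosome 5 to chromosome 14 neighbours in the order had overlapping intervals, while the interval of chromosome 19 touched that of chromosome 14 at its edge and overlapped that of chromosome 20, whose 120 islands left a wide one of 0.44 to 0.92. Chromosomes 1 and 6, among the lowest, had 70 and 69 background reads per kb, and the part of background in their order was not tested. Its median was higher in each of 5 length classes. The intervals were apart at 1200 to 1600 bp, with 1.00 (0.68 to 1.35) against 0.61 (0.55 to 0.66), at 1800 to 3000 bp, with 1.16 (0.96 to 1.31) against 0.69 (0.63 to 0.77), and above 3000 bp. They overlapped at 200 to 600 bp, with 0.65 to 1.30 against 0.65 to 0.73, and at 800 to 1000 bp, with 0.49 to 1.02 against 0.59 to 0.70. Inside a longer H3K4me1 island the medians were 0.95 (0.65 to 1.09) and 0.55 (0.52 to 0.57), while among islands meeting several H3K4me1 islands they were 1.16 (0.98 to 1.35) in 18 islands and 1.05 (0.99 to 1.11), with overlapping intervals. The same chromosome was highest among the other one-to-one pairs, at 0.69 (0.62 to 0.74) in 1438 pairs against 0.47 (0.46 to 0.48) elsewhere. Over the 22 chromosomes the medians of identical islands and of other pairs had a Spearman coefficient of 0.735, and 0.695 without chromosome 19, as a description of libraries they share.

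**Figure D5:**
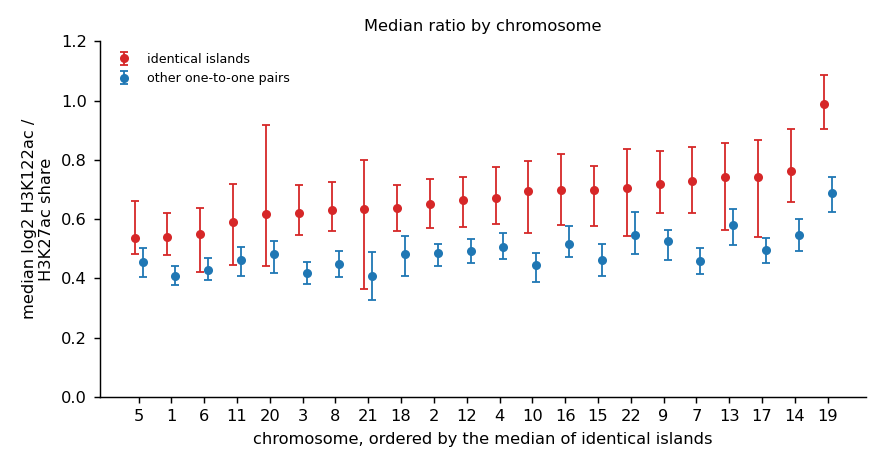
Median log2 ratio of H3K122ac to H3K27ac share per chromosome, with 95% intervals of the median over islands, for the identical islands (red) and the other one-to-one pairs (blue). Chromosome 19 is highest in both, at 0.99 and 0.69.

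Background density also went with the ratio, though the same background count serves both marks. From the 1250 islands with the fewest to the 1250 with the most background reads per kb, the median log2 ratio went from 0.82 (0.78 to 0.87) to 0.55 (0.50 to 0.60). With background subtracted, in proportion to the library ratios of the authors' folds, the sign turned, at 0.19 log2 units higher in the set with the most instead of 0.27 lower. No direction is therefore given for this relation.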

How the data were processed

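Per the submitters' processing notes, Bowtie 0.12.8, HOMER 4.3 and SICER 1.1 were used with hg19 for human reads; the notes give them no roles. Each deposited list gives whole-number read counts of the ChIP and a background library per island, p-values and adjusted p-values (at most 0.01), and a fold, the ratio of the counts over 1 library ratio per list (0.258 for H3K122ac, 0.688 for H3K27ac), all by the authors. Per the labels of the files, windows were 200 bp and gaps 600 bp for H3K122ac and H3K4me1 and 200 bp for H3K27ac. The smaller gap leaves fewer long islands that can be identical. The labels do not name the background library. Coordinates are 1-based. With no annotation or sequence of hg19 used here, islands were not assigned to genes and the gene lists were not scored.

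Counts were joined on chromosome, start and end in Python 3.11.15 with pandas 2.3.3, numpy 2.4.6 and scipy 1.17.1, and the code was tested on simulated data. Shares carry Wilson intervals, ratios exact Clopper-Pearson intervals and medians exact binomial order-statistic intervals, all over islands. Named islands needed 100 reads of each mark and 10 background reads: the 6 highest and 6 lowest ratios, 6 largest products of densities, 6 longest, 4 nearest the median from 1000 reads, extreme chromosomes and 3 highest and lowest runs. Members, rules and gene lists were chosen with earlier results of these data known. Alternatives changed scaling, background, read minimum, end tolerance, q-value, chromosomes and the H3K4me1 overlap.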

Additional observations from a re-analysis of the deposited data

How the results depend on the processing

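No paired analysis was possible because each mark in K562 has 1 library and the results come from no test. The median log2 ratio of 0.66 became -0.084 when scaled by reads in the identical islands, 1.17 as the ratio of deposited folds, 1.1 with background subtracted, 0.86 with 100 or more reads in each list and 0.72 at q-values of at most 1e-10. Of the 5000 islands, the first 3 settings put 119, 3014 and 2769 2-fold or more higher in H3K122ac and 401, 1 and 55 in H3K27ac. Sets of another size are read by their shares. With 100 reads, 906 of 2335 (38.8%) were higher in H3K122ac and 2 (0.0857%) in H3K27ac. At the strict q-value these were 1092 of 3380 (32.3%) and 8 (0.237%), and with ends within 200 bp 3890 of 13059 (29.8%) and 79 (0.605%). The minimum of 100 reads is a larger share of the smaller H3K122ac list, so that setting keeps islands partly by their ratio. The length difference (longest minus shortest of 4 classes) of -0.02 became -0.20 with background subtracted and -0.37 with 100 reads, and turned to 0.011 with ends within 200 bp and 0.0063 at the strict q-value. The background difference of -0.27 turned to 0.19 with background subtracted and became -0.16 with 100 reads and -0.19 at the strict q-value. The difference with minus without H3K4me1, -0.08 (-0.18 to -6.1e-05), became -0.28 (-0.35 to -0.16) with background subtracted and -0.18 (-0.26 to -0.10) with 50% of the island covered. It was -0.35 (-0.50 to -0.19) at the strict q-value. With 100 reads it was -0.39 (-0.60 to -0.08), where few islands without H3K4me1 remained. Islands without H3K4me1 had a median of 54 H3K122ac reads, so those with 100 were kept partly by that count. The share meeting H3K4me1, 91.3%, was 98.2% with 100 reads and 95% at the strict q-value, and 89.1% with 50% covered, 82.3% for H3K4me1 q-values of at most 1e-10 and 57.1% for H3K4me1 folds of 3 or more. The 4 results added after seeing the data kept their direction in the alternatives that can change a difference between islands. These were interrupted H3K4me1 (0.51, range 0.29 to 0.57), chromosome 19 (0.34, 0.26 to 0.35), isolation (0.48, 0.36 to 0.67) and low H3K4me1 at strong H3K27ac (0.49, 0.34 to 0.51). The cause of the changes was not tested. Rescaling all islands by 1 constant cannot change such a difference. Leaving those out, 32 of 69 values stayed within the interval of the main value, or within 1.5 times a count. Depth limits what a single island shows: the median width of its interval was 0.79 log2 units.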

Other observations

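The 183 identical islands on X, which the rule leaves out, had a median log2 ratio of 0.78, a median length of 1200 bp and a median background of 44.4 reads per kb, and 63 of them (34.4%) had a 2-fold or larger H3K122ac share. These were given as values only.

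The extremes without a read minimum lay outside the rule for named islands and were chosen after their values were seen. The lowest log2 ratio of all 5000 identical islands was -1.88 and the highest 2.53. Of the 500 islands with the highest ratio, 79 met no H3K4me1 island, against 29 of the 500 with the lowest and 437 of all 5000. The shares inside a longer H3K4me1 island were 43.2%, 71.6% and 54.2% in the same order. Median length was 1000 bp in the highest set and 1400 bp in the lowest, and short islands met H3K4me1 less often.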
